A study of Mus musculus with 18 samples.

Results

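Bcl6, Cish and 8 further genes that growth hormone controls or acts through in liver (Socs2, Igf1, Igfals, Ghr, Stat5b, Hsd3b5, Cela1 and Mup3) were followed over 18 arrays of mouse liver RNA. These 10 genes, of 18193 that the platform annotation names by a single symbol, are measured by 23 probe sets. Of these, 20 were bright enough to be among the 27022 probe sets tested, and 3 of the 6 Socs2 probe sets were not. Each probe set is treated on its own, and the tested probe set with the highest mean is called the main one of its gene. The genes were selected on values of these same arrays, taken here to be the difference between genotypes at 4 weeks, so that difference is described with no test. Differences of these genes from the 4-week arrays use the same arrays and are likewise given as values with no test.

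The animals were male mice of 2 genotypes, Hmgn1+/+ (wild type) and Hmgn1-/- (knockout). Hmgn1 encodes a nucleosome-binding protein of the high mobility group. Both lines descend from heterozygous crosses and were then bred apart as homozygotes, so genotype and line cannot be told apart. Each genotype has 3 arrays from mice that were not injected and taken at 4 weeks, 3 from mice that received saline and 3 from mice that received N-nitrosodiethylamine (DEN). DEN is turned into a DNA-damaging carcinogen by cytochrome P450 enzymes of hepatocytes. The dose was 10 µg per g body weight, and both injections were made when the mice were 4 weeks old. The injected groups are labelled 12 weeks, and whether this counts from birth or from the injection is uncertain. The labels do not tell whether arrays in a group stem from different animals. The p-values then cover only the variation among these 18 samples, which may be technical.

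Growth hormone binds its receptor, Ghr, on hepatocytes and activates the kinase JAK2, which phosphorylates the transcription factor STAT5b. STAT5b switches on Igf1, whose product circulates bound to the protein that Igfals encodes, and the inhibitors Cish and Socs2, which feed back on the receptor. In rodents the pulses of growth hormone in males and the steadier exposure in females set different liver programs. Hsd3b5 and the major urinary proteins belong to the male program, and Bcl6 is a repressor that is itself turned down by growth hormone through STAT5 and competes with STAT5 at shared sites.

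STAT5 binds the sequence TTCNNNGAA, which reads the same on both strands, so that a single search covers both and matches are counted where they overlap too. It was looked for in the RefSeq promoter windows of build GRCm38.p6, which run from 250 bases before to 50 bases after a gene's annotated start. Cish, Bcl6 and Igfals had matches, and the windows of Cish and Bcl6 are shown in part because these genes carry the largest differences below, with the matches in capitals.
Cish, chr9:107296589-107296683, plus strand, from 70 bases before the start to 25 after: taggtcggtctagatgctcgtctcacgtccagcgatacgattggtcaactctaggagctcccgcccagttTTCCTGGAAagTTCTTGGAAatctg
Bcl6, upstream start, chr16:23988932-23989002, minus strand, from 150 to 80 bases before the start: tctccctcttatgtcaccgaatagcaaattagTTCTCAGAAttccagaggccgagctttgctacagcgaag
Bcl6, downstream start, chr16:23981343-23981473, minus strand, from 190 to 60 bases before the start: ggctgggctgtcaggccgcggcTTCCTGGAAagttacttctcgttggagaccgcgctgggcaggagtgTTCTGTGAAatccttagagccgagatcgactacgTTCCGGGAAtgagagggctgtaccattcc
The Cish window holds 2 matches, the first of which begins at the annotated start itself, and the downstream Bcl6 window holds 3. Of 32851 windows of the same length, 8.30% hold at least 1 match, 0.457% hold 2 or more and 0.0335% hold 3 or more. Igfals has 1 match in each of 2 of its windows. No match lies in the windows of Hsd3b5, Mup3, Igf1, Stat5b, Ghr or Cela1. Windows were used for 9 of the 10 genes, 14 in total, and none for Socs2. A match describes these letters and is not a measured binding site.

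The deposited values are signals on a linear scale, brought to a common trimmed mean of 150 on each array. Differences are given as log2 of the signal plus 16, and adjusted p-values are those of limma over all tested probe sets of a comparison. A change is written as a rise or a fall only where the adjusted p lies under 0.05. The 6 saline arrays differed from the remaining 12 in signal range. The brightest probe set reached 16720 to 21752 on them and 46967 to 60173 elsewhere, and 4 bacterial and phage hybridization controls were lower on them by a mean log2 difference of -2.44 to -2.89. Saline and this difference between arrays cannot be told apart, so differences after quantile normalization, which gives all arrays 1 distribution, are given as well where saline is compared with other arrays, followed by their adjusted p where tested. The summed signal of 10 hepatocyte markers was 101146 to 128909 on saline arrays and 221154 to 254190 on the others. For Hmgn1 itself the 4-week wild-type signal was 6918 ± 947 (SD, n = 3), and that of the knockout was 6678 ± 181 (SD, n = 3). The deleted part of the gene is not given in the sources used here, so this signal does not check the labels. In whole liver, fewer cells of a type and less RNA per cell cannot be told apart.

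Bcl6 (chromosome 16, 23965050 to 23988866) was higher in knockout than in wild type at 4 weeks and was low with DEN in both genotypes. In wild type at 4 weeks its signal was 248, 357 and 312 on the 3 arrays, and in knockout it was 1098, 1078 and 1194. With saline it was 257, 492 and 341 in wild type and 920, 542 and 949 in knockout. With DEN it was 152, 223 and 148 in wild type and 119, 95.04 and 484 in knockout. All knockout arrays lay above all wild-type arrays at 4 weeks and with saline, whereas with DEN the genotypes overlapped and a single knockout array, replicate 3, was high.

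The comparison of DEN with saline asks what the carcinogen does against its injection control. In knockout Bcl6 fell by 2.02 on the log2 scale (SE 0.36, adjusted p 0.000484), which is 4.06-fold, with all 3 DEN arrays below all 3 saline arrays. Quantile normalization gave -2.01 (adjusted p 0.00101). The call held in 18 of 18 alternatives, which ran from -2.70 to -1.61. In wild type the difference was -0.97 (SE 0.36, adjusted p 0.119, quantile -0.92 and 0.166), again without overlap. The difference between these 2 responses was -1.05 (SE 0.51, 95% interval -2.11 to 0.0024) with an adjusted p of 0.623 (quantile -1.09 and 0.660), so that a different response of the genotypes was not shown.

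With DEN minus 4 weeks Bcl6 differed by -2.54 on the log2 scale in knockout and by -0.76 in wild type (SE 0.36 each), without overlap of the arrays in either genotype. With the ratio of 3' to 5' Gapdh signal in the fit, the knockout value was -2.25. That ratio, which rises as RNA degrades, was 1.35 to 1.70 on the 4-week knockout arrays and 0.907 to 0.937 on the DEN knockout arrays. On the knockout saline arrays it was 1.21 to 1.41, so it also separates saline from DEN in knockout. Its part in either difference was not tested further. Saline minus 4 weeks was 0.21 in wild type and -0.52 in knockout (SE 0.36 each), and 0.14 and -0.52 after quantile normalization.

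Between genotypes Bcl6 differed by 1.84 (SE 0.36) at 4 weeks, a 3.58-fold difference that is described only. With saline, on arrays outside the 4-week difference that is taken here as the selection, it differed by 1.12 (SE 0.36, 2.17-fold, adjusted p 0.813). With DEN it differed by 0.06 (SE 0.36, adjusted p 0.977). Without knockout DEN replicate 3 the DEN difference was -0.61 (adjusted p 0.419). A second Bcl6 probe set was dimmer, between 5.61 and 105 on all arrays. It was 75.2, 105 and 100 in knockout at 4 weeks against 65.8, 47.0 and 36.9 in wild type, and no tested comparison called it. In knockout its DEN minus saline difference was -0.06 (SE 0.31, adjusted p 0.926, quantile 0.07), so the probe sets disagree on the fall with DEN. Bcl6 and Hmgn1 both lie on chromosome 16.

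**Figure D1:**
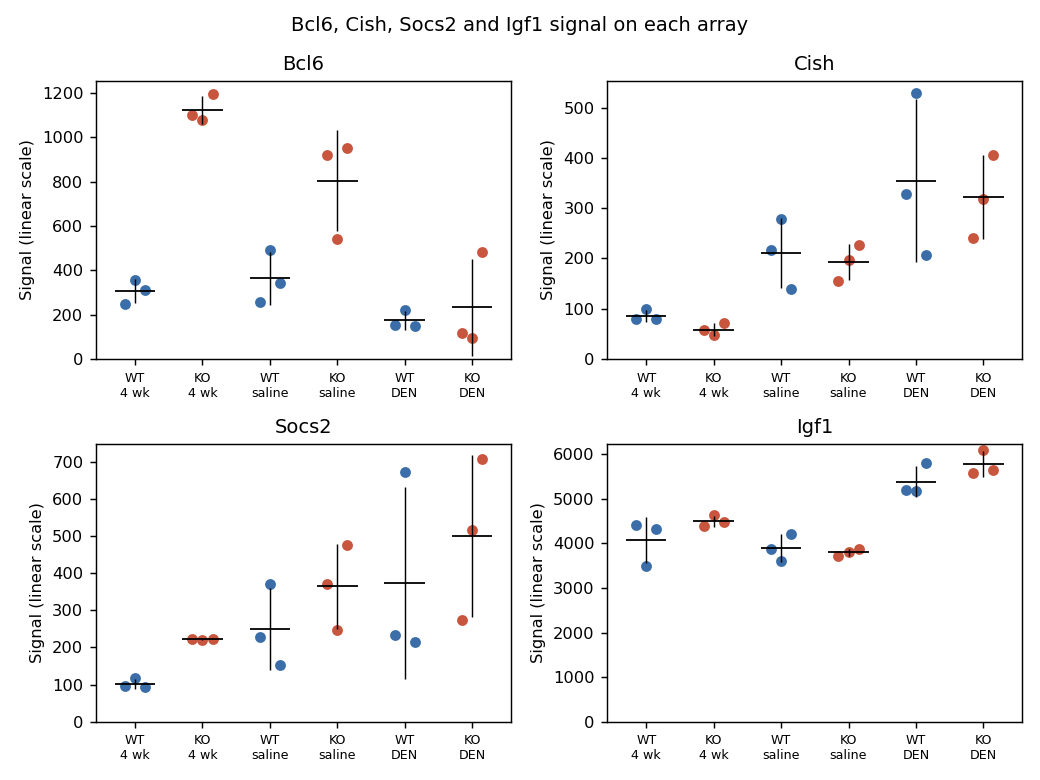
Signal on a linear scale (vertical axis) of the main probe sets of Bcl6, Cish, Socs2 and Igf1 in 6 groups (horizontal axis) of wild type (WT, blue) and knockout (KO, red); each point is 1 array, horizontal bars are means and vertical lines 1 SD, n = 3. Bcl6 is highest in the knockout at 4 weeks (1078 to 1194) and low with DEN except on 1 knockout array at 484, and Cish is 46.8 to 99.1 on the 4-week arrays and 140 to 529 on the injected ones.

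Cish (chromosome 9, 107296659 to 107302784), a suppressor of cytokine signalling that STAT5 induces, was higher in every injected group than at 4 weeks. At 4 weeks its signal was 79.8, 99.1 and 78.7 in wild type and 57.5, 46.8 and 71.6 in knockout. With saline it was 216, 279 and 140 in wild type and 155, 197 and 226 in knockout, and with DEN 329, 529 and 206 in wild type and 241, 319 and 406 in knockout. No 4-week array reached the lowest injected array.

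The DEN arrays differed in Cish from those at 4 weeks by 2.16 in log2 in knockout (SE 0.26, 4.48-fold) and 1.77 in wild type (SE 0.26, 3.42-fold). Saline minus 4 weeks for Cish was 1.48 in knockout and 1.12 in wild type (SE 0.26 each), and 1.42 and 1.04 after quantile normalization. DEN and saline, which do not use the 4-week arrays, did not differ by a called amount. The difference was 0.68 in knockout (SE 0.26, adjusted p 0.0807, quantile 0.75 and 0.0647) and 0.66 in wild type (SE 0.26, adjusted p 0.146, quantile 0.71 and 0.137). Without DEN replicate 1 the knockout value was 0.86 (adjusted p 0.0464). Between genotypes Cish differed by -0.46 at 4 weeks (SE 0.26, described only), -0.09 with saline and -0.07 with DEN (SE 0.26 each, adjusted p 0.995 and 0.963). Age and injection both separate the injected groups from the 4-week groups and cannot be told apart.

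Socs2 (chromosome 10, 95383903 to 95417321), which limits growth hormone receptor signalling, had nearly equal signals on the 3 knockout arrays at 4 weeks and spread widely in the injected groups. Its main probe set read 96.2, 118 and 92.9 in wild type and 222, 219 and 223 in knockout at 4 weeks. With saline it read 228, 370 and 153 in wild type and 370, 247 and 477 in knockout. With DEN it read 235, 672 and 215 in wild type and 274, 516 and 708 in knockout. Every wild-type 4-week array was below every other array of the set.

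At Socs2 the DEN arrays differed from the 4-week arrays by 1.53 in log2 in wild type and 1.02 in knockout (SE 0.35 each) at the main probe set, and 1.48 and 0.74 (SE 0.39 each) at the second. Without wild-type DEN replicate 2 the main wild-type value was 1.03. Saline minus 4 weeks was 1.10 in wild type and 0.63 in knockout (SE 0.35 each), and 1.03 and 0.62 after quantile normalization. The comparisons that do not use the 4-week arrays gave no call. DEN minus saline was 0.44 in wild type (SE 0.35, adjusted p 0.548, quantile 0.48) and 0.39 in knockout (SE 0.35, adjusted p 0.509, quantile 0.43). Between genotypes the main probe set differed by 1.01 at 4 weeks (SE 0.35, described only), 0.55 with saline (SE 0.35, adjusted p 0.986) and 0.50 with DEN (SE 0.35, adjusted p 0.715).

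At the main probe sets, arrays of a group that were high in Cish tended to be high in Socs2. In the saline knockout group, however, replicate 1 was lowest in Cish and replicate 2 was lowest in Socs2. Taken as deviations from the mean of their group, which removes every group difference, the log2 values of Cish and Socs2 had a Pearson r of 0.840 over 18 arrays. The exact permutation test within groups, over 46656 arrangements and two-sided, gave p = 0.00517, or 0.0310 after Benjamini-Hochberg adjustment over 6 pairs of genes. Spearman's rho was 0.804 (exact permutation p = 0.00309, adjusted 0.0185). Without the 2 arrays farthest from the median of Cish, r was 0.760. With the next tested probe set of Socs2, r was 0.670 (adjusted p 0.162). Wild-type DEN replicate 2 had the largest positive deviation in both genes.

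Bcl6 and Socs2 gave r = 0.631 (exact permutation p = 0.0390, adjusted 0.0779), rho = 0.723 (exact permutation p = 0.0126, adjusted 0.0378) and r = 0.789 without the 2 farthest arrays, so that only the rank correlation passed. Bcl6 and Cish gave r = 0.475 (exact permutation p = 0.0829, adjusted 0.124) and rho = 0.544 (adjusted 0.0927), and r = 0.518 without the 2 farthest arrays. Igf1 gave r of -0.533 with Cish, -0.374 with Socs2 and -0.357 with Bcl6, with adjusted exact permutation p of 0.0779, 0.150 and 0.137. Their rho was -0.544, -0.474 and -0.434 (adjusted exact permutation p 0.0927, 0.110 and 0.110), and without the 2 farthest arrays r was -0.456, -0.462 and -0.357. All 3 Igf1 values turned positive, to 0.273, 0.111 and 0.559, when each gene with a next tested probe set was read from it. This changed Igf1 alone in the pair with Cish, but both genes in the pairs with Socs2 and Bcl6. The sign change in those pairs is therefore not that of the Igf1 probe set alone.

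**Figure D2:**
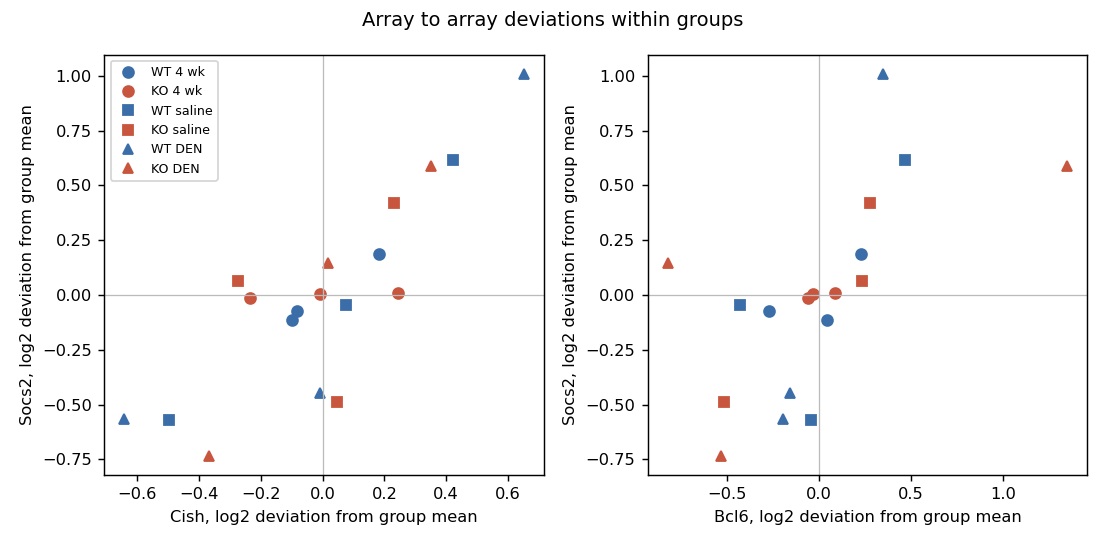
Log2 deviation of each of 18 arrays from the mean of its group, for Cish (left, horizontal axis) and Bcl6 (right, horizontal axis) against Socs2 (vertical axis); blue is wild type, red knockout, circles 4 weeks, squares saline and triangles DEN. The points rise together in the left plot (r = 0.840) and less closely in the right plot (r = 0.631), where a knockout DEN array lies far to the right.

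Igf1 (chromosome 10, 87858265 to 87937047) encodes the hormone through which much of the growth effect of growth hormone runs. Its main probe set read 4418, 3491 and 4316 in wild type and 4386, 4631 and 4480 in knockout at 4 weeks. With saline it read 3878, 3597 and 4218 in wild type and 3714, 3805 and 3868 in knockout. With DEN it read 5187, 5172 and 5791 in wild type and 5584, 6101 and 5647 in knockout, so that all 6 DEN arrays lay above all 12 others.

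Over saline Igf1 rose with DEN by 0.60 in knockout (SE 0.09, adjusted p 5.63e-05) and by 0.47 in wild type (SE 0.09, adjusted p 0.00169). By quantile normalization these were 0.27 (adjusted p 0.0171) and 0.20 (adjusted p 0.130). From 4 weeks the DEN arrays differed by 0.36 in knockout and 0.41 in wild type (SE 0.09 each), and 0.12 and 0.26 with the Gapdh ratio as a covariate. The 4 Igf1 probe sets disagreed. Over saline the other 3, in order of falling mean, gave 0.12, 0.37 and 0.12 in knockout (adjusted p 0.357, 0.00346 and 0.348) and 0.13, 0.18 and -0.01 in wild type (adjusted p 0.402, 0.210 and 0.968). After quantile normalization they gave -0.22, 0.10 and 0.03 in knockout, and none was called. Between genotypes no Igf1 probe set was called with saline or DEN, with differences from -0.12 to 0.10.

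Igfals (chromosome 17, 24877844 to 24882011), which encodes the protein that keeps IGF1 in the circulation, was called in no tested comparison. Its signals ran from 227 to 370 in the saline groups, from 288 to 368 at 4 weeks and from 315 to 628 with DEN. DEN minus saline was 0.60 in wild type (SE 0.19, adjusted p 0.0573, quantile 0.66 and 0.0523) and 0.37 in knockout (SE 0.19, adjusted p 0.205, quantile 0.43 and 0.152). The highest value, 628, lay on wild-type DEN replicate 2, the array that was also highest in Cish.

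Ghr (chromosome 15, 3317755 to 3583352), the receptor, read 9223 to 9832 in wild type and 9092 to 9806 in knockout at 4 weeks at its main probe set. With DEN it read 8550 to 10749 in wild type and 9191 to 10071 in knockout, and with saline 6326 to 7934 and 7465 to 7696. DEN minus 4 weeks was 0.0051 in wild type and 0.04 in knockout (SE 0.09 each). The deposited values gave rises with DEN over saline of 0.38 in wild type (SE 0.09, adjusted p 0.00993) and 0.35 in knockout (SE 0.09, adjusted p 0.0101), and quantile normalization reversed both to -0.16 and -0.21. Without wild-type DEN replicate 1 or saline replicate 2 the wild-type value was 0.30 or 0.28 (adjusted p 0.0556 and 0.0899). The second Ghr probe set rose with DEN over saline by 0.36 in wild type (SE 0.08, adjusted p 0.00713) and 0.54 in knockout (SE 0.08, adjusted p 7.89e-05). Its quantile values were 0.16 (adjusted p 0.200) and 0.28 (adjusted p 0.0119), so that the knockout call held there. A dimmer probe set gave 0.11 and -0.06 (SE 0.13 each, adjusted p 0.728 and 0.808, quantile 0.15 and 0.02). Saline minus 4 weeks at the main probe set was -0.38 and -0.31, and 0.17 and 0.20 after quantile normalization.

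Stat5b (chromosome 11, 100780731 to 100859004), the signal transducer, read 365, 316 and 319 in wild type at 4 weeks at its main probe set, 264, 252 and 207 with DEN and 238, 267 and 262 with saline. In knockout it read 321, 321 and 362 at 4 weeks, 259, 310 and 247 with DEN and 251, 281 and 306 with saline. All 4-week arrays lay above all injected arrays. For this probe set DEN minus 4 weeks was -0.45 in wild type and -0.29 in knockout (SE 0.12 each). A second, dimmer probe set went the other way, at 0.39 in wild type and 0.10 in knockout (SE 0.32 each), so the probe sets disagree. DEN minus saline at the main probe set was -0.08 and -0.04 (SE 0.12 each, adjusted p 0.767 and 0.870, quantile -0.04 and 0.03).

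Hsd3b5 (chromosome 3, 98618636 to 98645534), a 3-ketosteroid reductase of male mouse liver, was higher in knockout at 4 weeks. It read 2444, 2275 and 2488 in wild type and 3960, 3844 and 3938 in knockout, and with saline 2671, 2501 and 2289 in wild type and 3175, 3068 and 3337 in knockout. With DEN it read 3215, 3793 and 2776 in wild type and 3317, 3581 and 5076 in knockout. The genotypes did not overlap at 4 weeks or with saline, and overlapped with DEN.

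Between genotypes Hsd3b5 differed by 0.70 at 4 weeks (SE 0.12, described only), 0.36 with saline (SE 0.12, adjusted p 0.813) and 0.28 with DEN (SE 0.12, adjusted p 0.526). From 4 weeks to DEN the difference was 0.43 in wild type and 0.0029 in knockout (SE 0.12 each), the first measured from the lower of the 4-week groups. DEN minus saline was 0.38 in wild type (SE 0.12, adjusted p 0.0678, quantile 0.27 and 0.237), and 0.49 (adjusted p 0.0295) without DEN replicate 3. In knockout it was 0.30 (SE 0.12, adjusted p 0.111, quantile 0.07 and 0.789).

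Cela1 (chromosome 15, 100674422 to 100687920) encodes a chymotrypsin-like elastase. It read 457, 352 and 455 in wild type and 753, 684 and 727 in knockout at 4 weeks. With saline it read 601, 533 and 597 in wild type and 724, 686 and 719 in knockout, and with DEN 545, 546 and 715 in wild type and 679, 716 and 819 in knockout. The genotypes did not overlap at 4 weeks or with saline.

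Cela1 differed between genotypes by 0.76 at 4 weeks (SE 0.11, described only), 0.29 with saline (SE 0.11, adjusted p 0.925) and 0.29 with DEN (SE 0.11, adjusted p 0.465). DEN minus 4 weeks was 0.50 in wild type and 0.03 in knockout, and saline minus 4 weeks was 0.45 and -0.02 (SE 0.11 each, quantile 0.39 and -0.03 for saline), the wild-type values again measured from the lower of the 4-week groups. DEN minus saline was 0.05 in both genotypes (SE 0.11 each, adjusted p 0.875 and 0.820, quantile 0.11 and 0.06). Cela1 is named for the pancreas, and 10 pancreatic acinar markers were measured as a check. Their summed signal was 114 to 237 over the groups, the brightest of them had a group mean of 62.6, and only 4 of the 10 passed the filter.

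Mup3 (chromosome 4, 62083476 to 62087317), a major urinary protein made by the male liver, is measured by probe sets whose names in _x_at mark probes that may also bind other transcripts, and the family is nearly identical in sequence, so the signal may include other members of the family and is uncertain as a measure of Mup3 alone. The main probe set read 26971, 35130 and 34061 in wild type and 31167, 20186 and 28187 in knockout at 4 weeks. With DEN it read 28029, 34674 and 22217 in wild type and 26521, 33631 and 29690 in knockout, and on all 6 saline arrays it lay between 7948 and 10211. DEN over saline was 1.65 in wild type and 1.63 in knockout (SE 0.15 each, adjusted p 2.18e-07 and 2.38e-07). By quantile normalization these were 0.79 and 0.73 (adjusted p 0.000486 and 0.000199), so that the size was cut while the call held. DEN minus 4 weeks was -0.19 in wild type and 0.19 in knockout, and saline minus 4 weeks was -1.84 and -1.44 (SE 0.15 each, quantile -0.998 and -0.60 for saline). A second Mup3 probe set was dim, from 21.5 to 87.3, and differed with saline minus 4 weeks by 0.94 in wild type and 0.90 in knockout (SE 0.25 each, quantile 0.87 and 0.78), opposite to the main one. Its DEN minus saline difference was -0.37 in wild type and -0.31 in knockout (SE 0.25 each, adjusted p 0.459 and 0.452, quantile -0.36 and -0.17).

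**Figure D3:**
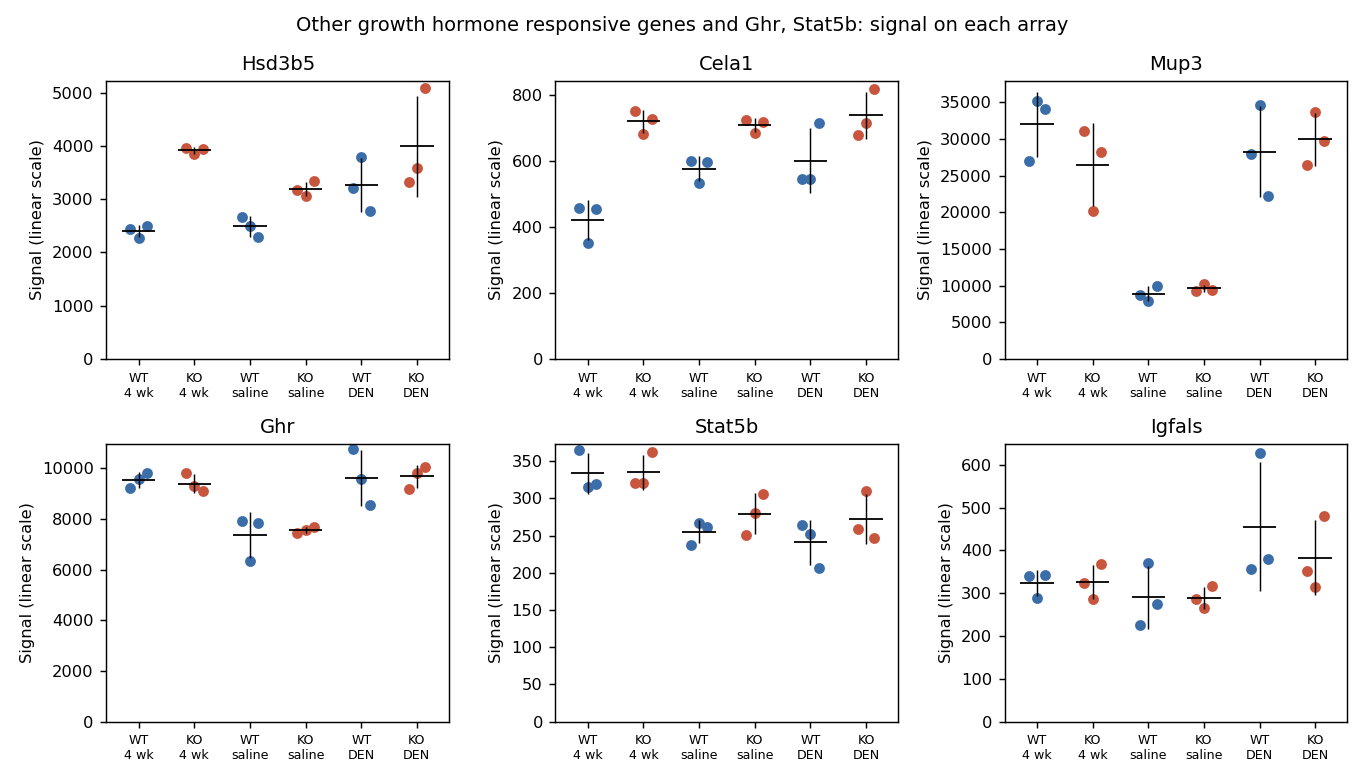
Signal on a linear scale (vertical axis) of the main probe sets of Hsd3b5, Cela1, Mup3, Ghr, Stat5b and Igfals in 6 groups (horizontal axis) of wild type (WT, blue) and knockout (KO, red); each point is 1 array, horizontal bars are means and vertical lines 1 SD, n = 3. Hsd3b5 and Cela1 are higher in knockout at 4 weeks and with saline, and Mup3 lies between 7948 and 10211 on the saline arrays and between 20186 and 35130 on the others.

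Counted together, 0 of 20 tested probe sets of these genes were called between genotypes with saline and 0 with DEN, where 0.0111% and 0.00740% of all tested probe sets were. At an unadjusted p under 0.05, 3 of the 20 passed in each, where 1426 of 27022 did with saline and 2424 of 27022 with DEN. The different response of the genotypes to DEN was called at 0 of 20 and at 0% of all probe sets, with 0 of 20 and 2170 of 27022 at an unadjusted p under 0.05. DEN over saline was called at 4 of 20 in wild type and 6 of 20 in knockout, where the background was 6.54% and 15.1%. Quantile normalization left 1 and 4 calls, where 983 of 27022 probe sets were called in wild type and 2952 of 27022 in knockout. Saline over 4 weeks was called at 7 of 20 in each genotype, where the background was 8.26% in wild type and 9.94% in knockout. DEN over 4 weeks was called at 8 of 20 in wild type, 7 higher and 1 lower, and at 3 of 20 in knockout, 2 higher and 1 lower. The background there was 4.40% in wild type and 8.24% in knockout. Counts against 4 weeks use the arrays on which the genes were selected, so nothing is read from them. The comparisons of one group with several others share that group's arrays.

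**Figure D4:**
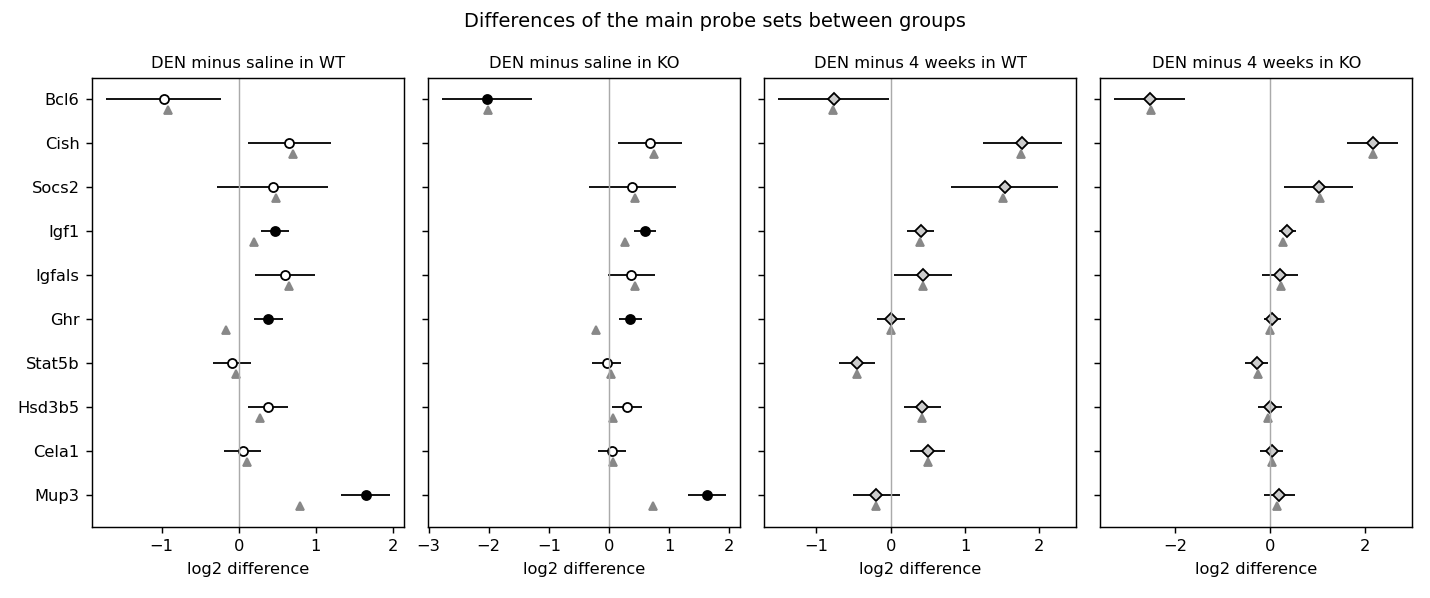
Log2 difference (horizontal axis) of the main probe set of each of 10 genes (vertical axis) in 4 comparisons, with 95% intervals as lines. Over saline, filled circles have an adjusted p under 0.05 and open circles do not. Over 4 weeks, diamonds give the difference with no test, and the lines are not read as one because the selection used those arrays. Triangles give the difference after quantile normalization. Bcl6 lies at -2.02 and -2.54 in the knockout panels and Cish at 2.16 and 1.77 over 4 weeks, while Mup3 and Ghr move with the normalization over saline.

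Other genes of the pathway were counted at their main probe sets, over 12896 genes. Their lists were chosen with results of these arrays known, so counts and adjusted p-values of single genes are descriptions. Of 22 measured genes of higher expression in male liver under growth hormone control, 4 are Bcl6, Hsd3b5, Cela1 and Mup3. With DEN over 4 weeks in wild type 7 of the other 18 rose and 1 fell, where 2.27% and 2.44% of all genes did. With those 4 genes included 9 rose and 1 fell, but nothing is read from the part of the 4. The median difference of the 22 was 0.28, against 0.04 over all genes. Over the alternatives the count of 10 ran from 1 to 11, and from 4 to 9 with 1 array left out, lowest without 4-week replicate 2. In knockout 1 of the 18 rose and 1 fell, where 4.32% rose and 4.47% fell. Of all 22, 1 rose and 2 fell, with a median of 0.02 against -0.00059 over all genes. Leaving out any 1 array gave 1 or 2 calls among the 22.

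Among the male-biased genes, Serpina4-ps1, a serpin pseudogene, rose in wild type by 1.50 (adjusted p 0.0135), the glucuronosyltransferase Ugt2b38 by 1.33 (adjusted p 0.000174) and the adipokine Serpina12 by 0.64 (adjusted p 0.0146). In wild type Serpina4-ps1 read 658 ± 78.7 at 4 weeks, 1479 ± 638 with saline and 2159 ± 1455 with DEN (SD, n = 3 each). Ugt2b38 read 216, 471 and 565 in wild type, and 423 in knockout at 4 weeks, so its rise is measured from the lower of the 4-week groups. Serpina12 read 1346, 1697 and 2112 in wild type. All 3 were thus higher with saline than at 4 weeks as well. The growth factor receptor Egfr, counted above, was higher by 0.81 in wild type and lower by 0.57 in knockout. These values are given with no test, since each is measured from 4-week groups that lay far apart. Its signal at 4 weeks was 1850 ± 86.5 in wild type and 6071 ± 55.8 in knockout, and with DEN 3276 ± 396 and 4276 ± 1496 (SD, n = 3 each). Serpina12 rose in knockout by 0.48 (adjusted p 0.0426). Whether the genotypes differ in this was not tested, since it would use the 4-week difference by which the genes were selected. The summed signal of 11 macrophage markers was 6432 to 6978 in wild type and 4213 to 4687 in knockout at 4 weeks, and 5856 to 7904 and 5434 to 8619 with DEN. That of 10 stellate cell markers was 5545 to 6386 against 4276 to 4463 at 4 weeks, and the part of either in these counts was not tested.

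Over saline, 8 male-biased genes rose with DEN in wild type, where 3.82% rose and 3.18% fell, and 7 rose and 1, Bcl6, fell in knockout, where 7.73% rose and 7.51% fell. Quantile normalization left 2 rises in wild type and 2 rises and 2 falls in knockout. Of all 12896 genes, 204 then rose and 284 fell in wild type, and 746 rose and 722 fell in knockout. Gstp1, a glutathione transferase, gave 1.11 in wild type and 1.07 in knockout on deposited values and 0.02 and -0.02 after quantile normalization. For saline over 4 weeks, 2 rose and 4 fell in wild type, where 4.87% rose and 4.92% fell, and 7 fell in knockout, where 5.40% rose and 6.29% fell. After quantile normalization these counts were 5 up and 2 down in wild type and 1 up and 1 down in knockout. Of all 12896 genes, 458 were then up and 338 down in wild type, and 552 up and 519 down in knockout. These counts against 4 weeks include Bcl6, Hsd3b5, Cela1 and Mup3, and nothing is read from their part. On deposited values, without them, 1 of 18 rose and 3 fell in wild type, and 6 fell in knockout. Ugt2b38 rose by 1.05 in wild type (adjusted p 0.000212, quantile 0.99), again measured from the lower of the 4-week groups.

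Among 17 measured genes of growth hormone receptor and STAT5 signalling, 3 rose and 3 fell with DEN over 4 weeks in wild type, and 2 rose and 1 fell in knockout, where 4.71% and 8.79% of all genes were called. These counts include the selected genes Cish, Socs2, Ghr and Stat5b, and nothing is read from their part. Without them 1 of 13 rose and 2 fell in wild type, and 1 rose and 1 fell in knockout. In wild type the cytokine inhibitor Socs3 rose by 1.28 (adjusted p 0.0257), and the insulin receptor substrates Irs2 and Irs1 fell by 1.05 (adjusted p 0.0120) and 0.65 (adjusted p 0.00525). In knockout the phosphatase gene Ptpn6 rose by 0.74 (adjusted p 0.0270) and Stat3 fell by 0.56 (adjusted p 0.0145). With 1 array left out the counts of called genes among all 17, selected genes included, ran from 3 to 6 in wild type and from 1 to 4 in knockout. They were lowest without 4-week replicate 2 or 3 or DEN replicate 2 or 3 in wild type, and without 4-week replicate 1 in knockout.

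Of 12 genes of the IGF1 axis, Igf1 and Igfals are among the selected genes, which leaves 10 others. With DEN over 4 weeks 0 of these 10 were called in wild type, against 4.71% of all genes. In knockout 1 of the 10 rose and 3 fell, against 8.79% of all genes called. Igfbp7 rose by 0.43 (adjusted p 0.0235), and 3 binding proteins of IGF fell, Igfbp1 by 1.28 (adjusted p 0.0291), Igfbp2 by 0.78 (adjusted p 0.00199) and Igfbp4 by 0.37 (adjusted p 0.0239). At 4 weeks these 3 lay higher in knockout than in wild type, and Igfbp7 lower. Mean signals of Igfbp2 were 5272 in wild type and 8461 in knockout at 4 weeks, and 4250 with saline and 5013 with DEN in knockout. In the same order, Igfbp4 read 10188, 12320, 6450 and 9518, and Igfbp1 4799, 5564, 3674 and 2586. Igfbp7 read 1510, 1178, 1311 and 1599. The part of the 4-week levels in these differences was not tested. With Igf1 and Igfals included the knockout count was 5, and nothing is read from the part of those genes. It ran from 0 to 5 over the alternatives and from 1 to 4 with 1 array left out, lowest without 4-week replicate 1 or 3.

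Of 25 measured genes of higher expression in female liver, 2 were called with DEN over 4 weeks in each genotype, which is 8% against 4.71% of all genes in wild type and 8.79% in knockout. In wild type these were the magnesium transporter gene Nipal1, at -1.19 (adjusted p 0.0268), and the retinol dehydrogenase gene Rdh16, at -0.64 (adjusted p 0.00153). Over saline with DEN, 0 of the 25 rose and 1 fell in wild type, 4% against 6.99% of all genes called. In knockout 2 rose and 2 fell, 16% against 15.2%. After quantile normalization 0 rose and 1 fell in wild type, and 2 rose and 3 fell in knockout. Among them Tox, which encodes an HMG-box protein, fell by 1.10 in wild type (adjusted p 0.0133, quantile -1.11) and by 1.20 in knockout (adjusted p 0.00357, quantile -1.09). Its mean signal at 4 weeks, with saline and with DEN was 45.4, 75.3 and 26.5 in wild type, and 52.8, 131 and 46.3 in knockout. It was thus highest on the saline arrays in both genotypes.

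Of 15 liver transcription factors of sex-biased expression, Onecut1, a homeodomain factor of hepatocytes, rose with DEN over 4 weeks by 1.82 in wild type (adjusted p 0.000174) and 1.33 in knockout (adjusted p 0.00161). Its mean signal at 4 weeks, with saline and with DEN was 53.3, 137 and 234 in wild type, and 62.3, 105 and 180 in knockout. Part of the difference from 4 weeks was thus present with saline. In knockout, without the selected gene Bcl6, 2 of 14 rose and 4 fell, against 8.79% of all genes called. With Bcl6 included the knockout count was 7 of 15, and nothing is read from its part. That count ran from 0 to 8 over the alternatives and from 3 to 6 with 1 array left out, lowest without 4-week replicate 1. In knockout Foxa2 rose by 0.53 (adjusted p 0.0243), Cebpb fell by 0.74 (adjusted p 0.0245) and Hnf4a fell by 0.43 (adjusted p 0.00247). Knockout mean signals at 4 weeks, with saline and with DEN were 5733, 3983 and 4254 for Hnf4a. They were 3964, 2845 and 2454 for Cebpb and 371, 478 and 548 for Foxa2. Wild type at 4 weeks read 4167, 3075 and 412 for these genes. The saline arrays thus differed from 4 weeks in the same direction, and the part of DEN was not tested.

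The genes whose log2 values over the 18 arrays were most like those of Bcl6, out of 12896, were Setd1b, Tapt1, Zbtb20, Dcaf6 and Slc35a3, with r from 0.861 to 0.910. Those most like Cish were Onecut1, Foxa2, Ncf1, Zfp655 and Saa1, with r from 0.855 to 0.906. Those most like Hsd3b5 were Slco1a1, Hao1, Mup10, Cyp7b1 and Slc8b1, with r from 0.845 to 0.929. Over the 12 arrays without saline, the same genes gave r from 0.890 to 0.946 with Bcl6, 0.856 to 0.935 with Cish and 0.842 to 0.924 with Hsd3b5. The arrays of a group share their condition, so these values describe a likeness of group patterns.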

How the data were processed

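Each probe set has 1 deposited intensity per array, which the authors made with MAS5, per the submitters' processing notes. Its version is not given in the sources used here. Trimming 2 percent at either end gave a mean of 150 on each of the 18 arrays. Arrays carry no depth, and having 3 per group sets the precision.

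After removal of 64 control probe sets, intensities were turned into log2(signal + 16). Probe sets at or above the 40th percentile of mean log2 were tested, 27022 in all, with limma 3.58.1 in R 4.3.3 (lmFit, eBayes with an intensity trend, 1 coefficient per group, two-sided, Benjamini-Hochberg over each of 9 contrasts). Residual and prior degrees of freedom were 12 and 9.19. Within-group deviations were correlated in Python 3.11.15 with numpy 2.4.6 and pandas 2.3.3. Named genes were the 10 members, of each pathway list up to 4 called genes with the largest difference per contrast, and the 5 genes most like Bcl6, Cish and Hsd3b5. The remaining names that counts of few calls refer to were chosen after their values were seen. Members and lists were chosen with earlier results of these data known. Contrasts with the 4-week arrays were fitted for all probe sets, as planned, but for the 10 members the text gives them without p-values, since the selection used those arrays. The fit was tested on simulated data. Replicate numbers did not pair arrays across groups: over 45 pairs of same-numbered arrays r ran from -0.098 to 0.116, with 2 over 0.1. Alternatives were other normalizations, numbers added, filters, variance priors, array weights, covariates and sets of arrays.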

Additional observations from a re-analysis of the deposited data

How the results depend on the processing

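Over 48 reported differences of single probe sets and 922 alternatives, 801 kept direction and side of the threshold, 79 lost a call, 28 gained one, 13 reversed and 1 moved by more than the spread between replicates. Counts of called probe sets of the 20 moved as follows. Calls over all 27022 tested probe sets (45037 with no filter) stand in parentheses, except where 1 array was left out. DEN minus 4 weeks in wild type went from 8 (1190) to 5 (693) with array weights and 4 (1384) with centred medians. It was 2 (240) with the Gapdh ratio as covariate, 2 (556) with no intensity trend and 3 (229) with the compared groups alone. Without the 6 saline arrays it was 4 (448). It was 2 (434) without the 4-week array of highest Gapdh ratio in each genotype, an alternative chosen after seeing the data. Leaving out 1 array gave 3 to 7, lowest without 4-week replicate 2. In knockout 3 (2226) became 1 (8) with the Gapdh covariate and 2 to 5 with 1 array left out, highest without DEN replicate 1. DEN minus saline in wild type went from 4 (1766) to 2 (1761) with centred medians, 2 (1157) with cyclic loess and 1 (983) with quantile normalization. It was 3 to 6 with 1 array left out. Saline minus 4 weeks in knockout went from 7 (2685) to 11 (4185) with array weights, 2 (1952) with cyclic loess and 4 (2265) with no filter. It was 4 (1949) with no intensity trend, 2 (1945) with quantile normalization and 12 (3709) with the compared groups alone. Without the high Gapdh arrays it was 4 (1916). With 1 array left out it was 3 to 5, lowest without 4-week replicate 1 or saline replicate 3. In wild type 7 (2232) became 11 (4077) with array weights and 4 (1492) with no intensity trend, and 3 to 7 with 1 array left out, lowest without saline replicate 2. Reversals were Ghr under cyclic loess and quantile normalization (DEN minus saline in knockout -0.11 and -0.21, in wild type -0.0084 and -0.16; saline minus 4 weeks in knockout 0.083 and 0.20, in wild type 0.019 and 0.17), Igf1 saline minus 4 weeks in knockout under cyclic loess (0.042), Bcl6 between genotypes with DEN without knockout replicate 3 (-0.61) or wild-type replicates 1 and 3 (-0.016 and -0.033), with a range of -0.61 to 0.47 over arrays left out, and Bcl6 saline minus 4 weeks in wild type without saline replicate 2 (-0.027), with a range of -0.027 to 0.42. For within-group deviations, the next probe set was taken for every gene of a pair that has one. This turned Bcl6 and Igf1 to 0.559, Cish and Igf1 to 0.273 and Socs2 and Igf1 to 0.111. It gave 0.670 for Cish and Socs2, no longer past the threshold. Cish and Igf1 passed with centred medians, at -0.573. With the replicate block, Bcl6 DEN minus saline in knockout was -2.02 (adjusted p 0.000469). Among single genes, the block changed a call only for Hsd3b5 and Socs2 against the 4-week arrays, differences given without a test. The cause of these changes was not tested.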
